A study of Homo sapiens with 8 samples.

Results

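The guides described here are the 11444 Cas13d guide RNAs that the deposited table places on junctions of the category single_unique. They were chosen by that label alone, and they make up 24.4% of the 46829 guides of the screen. They lie on 1562 of its 6735 exon-exon junctions and in 194 of its 1250 genes. None of these 194 genes (0 of 194) has a guide in another category, so the category separates genes as well as junctions. What the category means is not given in the sources used here. The screen was run in A375, an established human melanoma line, as a clonal population with the genotype TetO-RfxCas13d, in which doxycycline switches on the RNA-cutting nuclease RfxCas13d. There were 8 libraries of guide cassettes amplified from genomic DNA: 2 replicates without doxycycline at Day 0, and 2 replicates each at Day 7, Day 14 and Day 21 under 1 ug/ml doxycycline. Day 0 and the later days therefore differ in both time and doxycycline. A guide's value is its log2 fold change against Day 0, so −1 means that its share of the pool was lower by a factor of 2.

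Cas13d is guided by RNA and cuts RNA, not DNA. A guide that spans the join between a pair of exons matches the spliced transcript, and neither exon alone gives the whole match. Cells whose guide removes a transcript needed for growth become rarer in the pool, so loss of a guide is read as loss of fitness. Guides on several junctions of a gene reach the same transcript at different places where every isoform contains those junctions.

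A junction had at most 8 guides, and 1145 of the 1562 junctions had 8. A gene had a median of 6 junctions, from 1 junction in 19 genes to 46 in UTP20, and a median of 44.5 guides. The table types 115 of these genes as essential under Cas13 (7877 guides) and 79 as not essential (3567 guides). The criterion behind that type is not given and may rest on these same fold changes, so differences between the types are descriptions. Read depth is not given either. The smallest whole numbers that fit the fold changes, called implied numbers here, had a median per single_unique guide of 93 and 125 at Day 0 (replicates 1 and 2), 120 and 141 at Day 7, 93 and 142 at Day 14, and 67 and 110 at Day 21. At Day 21 an implied number of 1 was reached by 314 single_unique guides (2.74%) in replicate 1 and 327 (2.86%) in replicate 2. Loss beyond that number could not be measured. Guide sequences were not analysed here, so none is shown, and junctions are given by position in hg38, the build named in the submitters' processing notes.

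The first question was how far the single_unique guides as a whole fell. Their median log2 fold change was 0.013 and −0.094 at Day 7 (replicates 1 and 2). It fell to −0.28 and −0.19 at Day 14 and to −0.33 and −0.27 at Day 21. Set against the 963 non-targeting guides of the same library, the difference of medians was −0.049 ± 0.092 (SD, n = 2) at Day 7, where it was 0.016 in replicate 1 and −0.11 in replicate 2. It was −0.22 ± 0.051 at Day 14 and −0.28 ± 0.017 at Day 21, larger than the spread between replicates on both days. The guides of genes typed essential differed from the non-targeting guides by −0.45 ± 0.0039 at Day 21. Those of genes typed not essential differed by 0.023 ± 0.025, less than the spread between replicates.

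The lower tail moved further than the median. At Day 21, 31.6% ± 1.6 (SD, n = 2) of single_unique guides stood at −1 or lower. The share was 37.2% ± 1.3 for genes typed essential and 19.2% ± 2.0 for genes typed not essential. Non-targeting guides reached that level in 16.8% ± 0.59 of cases and guides of the non-essential control genes in 21.6% ± 1.9. The lowest 10% of single_unique guides lay below −2.95 in replicate 1 and −2.87 in replicate 2, and those of non-targeting guides below −1.46 and −1.39.

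Compared with the 25455 guides of the category common, the largest one, single_unique guides lay higher at Day 21 by 0.075 ± 0.0058 (SD, n = 2), the replicates giving 0.071 and 0.079. Within genes typed essential the difference was 0.042 ± 0.019, with 0.055 and 0.029. Within genes typed not essential it was −0.016 ± 0.038, with opposite signs in the replicates. The categories hold different genes and different shares typed essential. In single_unique 115 of 194 genes and 7877 of 11444 guides were so typed, and in common 366 of 542 genes and 19928 of 25455 guides. No p-value is given for these medians, because 2 paired differences cannot go below a two-sided p of 0.5 in an exact sign-flip test.

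Which genes fell was asked with the mean over all guides of a gene in each library, tested against 0 with limma and Benjamini-Hochberg adjustment over all 1223 genes with at least 3 guides. Of the single_unique genes, 193 had at least 3 guides, and DNAJC9, with 1 guide, was not tested. At Day 21, 43 of the 193 genes were lower (22.3%) and 1 was higher, at an adjusted p under 0.05. Over all genes tested, 20.8% were lower and 0.654% higher, so the share of single_unique genes that fell was near the background. When all days were fitted together, 89 single_unique genes were lower at Day 21 without a block and 99 with the replicate number as a block, with the 43 among them in both fits. Non-essential control genes were called lower in 5.08% of cases (20 of 394). All 43 genes that fell are typed essential, which is 43 of the 115 so typed (37.4%), and none of the 78 tested genes typed not essential fell (0 of 78). Among the other genes of the table, 168 of 364 typed essential (46.2%) and 23 of 272 typed not essential (8.46%) fell, so both shares were lower in single_unique genes, differences that were not tested. Of the 43 genes, 37 had a mean of −1 or lower and 9 a mean of −2 or lower. Whether replicates 1 and 2 came from separate transductions is not stated, and the p-values measure only the spread between these samples.

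All 4 ribosomal proteins among the single_unique genes fell, each of them a component of the small subunit, with a median of −2.28. The median over the 193 genes was −0.35 and over all 1223 genes −0.28. RPS4X, the small-subunit protein encoded on the X chromosome, was the lowest of all 193 genes. Its mean over 16 guides was −1.15 and −2.11 at Day 7, −3.18 and −3.57 at Day 14, and −3.85 and −3.90 at Day 21 (replicates 1 and 2). Every later day was lower than the one before in both replicates, and the replicates of Day 14 and Day 21 did not overlap. At Day 21 the mean was −3.88 ± 0.034 (SD, n = 2; SE 0.14, limma adjusted p = 0.0107), which is 14.7-fold less abundant. RPS28 had 8 guides on a single junction and a mean of −0.46 and −0.98 at Day 7, −2.36 and −2.57 at Day 14, and −2.26 and −2.80 at Day 21. Its Day 14 and Day 21 values overlapped, and its Day 21 mean was −2.53 ± 0.38 (adjusted p = 0.0124). RPS12 stood at −2.44 and −1.64 at Day 21 (adjusted p = 0.0213) and RPS25 at −1.40 and −1.90 (adjusted p = 0.0195).

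Of 28 genes of ribosome biogenesis, 10 fell at Day 21, 18 were not called at that day and the median was −0.47. The 10 were FBL, UTP20, TBL3, NOP56, WDR43, DDX18, DDX51, NOP58, RPF2 and GNL2. FBL encodes fibrillarin, the RNA methyltransferase of the box C/D small nucleolar particles. Its mean over 27 guides was −0.18 and −0.69 at Day 7, −2.17 and −3.14 at Day 14, and −2.46 and −2.79 at Day 21, so that Day 14 and Day 21 overlapped while Day 7 stood apart. At Day 21 it was −2.63 ± 0.23 (SE 0.17, limma adjusted p = 0.0107). NOP58, a scaffold of the same particles, fell much less, to −0.79 and −0.72 at Day 21 (adjusted p = 0.0463). RRP36, the highest of the list, stood at 0.30 in replicate 1 and 0.29 in replicate 2 and was not called (adjusted p = 0.24, or 0.0431 in the fit of all days with the replicate block).

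Of 19 genes matched to the spliceosome by symbol, 6 fell at Day 21 and 13 were not called at that day, with a median of −0.47. LSM2, part of the ring of LSm proteins on U6 small nuclear RNA, had a mean of −0.24 and −1.36 at Day 7, −2.89 and −4.15 at Day 14, and −3.22 and −4.30 at Day 21 over 16 guides. Replicate 2 was about 1 unit lower than replicate 1 on every day. The Day 21 mean of −3.76 ± 0.76 (SE 0.32, limma adjusted p = 0.0126) had the second lowest value among the 193 genes. SNRNP200 encodes the helicase Brr2, which unwinds U4 from U6 during activation of the spliceosome. Its 319 guides gave −0.51 and −1.18 at Day 7, −2.24 and −2.59 at Day 14, and −2.47 and −2.79 at Day 21 (adjusted p = 0.0107). SF3A3, SF3A1 and SF3B3 of the U2 particle also fell, SF3A3 to −1.62 and −1.95 (adjusted p = 0.014), as did SMU1 to −1.17 and −1.35 (adjusted p = 0.0192). SNRPA1, SF3B4 and SF3B6, also of the U2 particle, were not called, with Day 21 means over junctions of −0.57, 0.026 and 0.081. LSM11, which matched the list by its symbol but serves the processing of histone messages, was its highest member at 0.12 ± 0.0059 (adjusted p = 0.612).

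Among 13 genes of the RNA polymerases and general transcription, POLR2I and MED14 fell, and the median was −0.27. POLR2I, a subunit of RNA polymerase II, had a mean over 24 guides of −0.57 and −0.77 at Day 7, −1.59 and −1.56 at Day 14, and −1.86 and −2.18 at Day 21. The 3 days did not overlap, and the Day 21 mean was −2.02 ± 0.23 (limma adjusted p = 0.0126). POLR2J, another subunit of the same enzyme, had 4 guides on 1 junction and stood at 0.23 and 0.36 (adjusted p = 0.254).

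In DNA replication and repair, 4 of 10 genes fell, with a list median of −0.45: RPA1, MCM6, CHAF1B and TOP2A. RPA1, the large subunit of the complex that coats single-stranded DNA, stood at −0.084 and −0.63 at Day 7, −1.30 and −1.67 at Day 14, and −1.80 and −1.75 at Day 21 over 91 guides (limma adjusted p = 0.0124 at Day 21). RAD9A, of the checkpoint clamp, was the highest of the list at −0.092 and 0.36, with opposite signs in the replicates (adjusted p = 0.661).

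In mitosis and the kinetochore, 4 of 10 genes fell and 1 rose, the median being −0.40. The kinetochore protein SPC25 fell to −2.08 and −1.93 at Day 21 (limma adjusted p = 0.0107), and MIS18A, needed to load the centromeric histone CENP-A, to −2.02 and −1.84 (adjusted p = 0.0115). ANAPC2, the cullin-like subunit of the anaphase-promoting complex, fell to −1.13 and −1.41 (adjusted p = 0.0211), and NDC80, a partner of SPC25, was the other gene that fell. SPC24, another partner of SPC25, was not called, with a mean of 0.36 over its 3 junctions at Day 21. MAD2L1, a protein of the spindle assembly checkpoint, went the other way. Its mean over 15 guides was 0.37 and 0.25 at Day 7, 0.93 and 0.59 at Day 14, and 1.12 and 0.98 at Day 21, higher on each later day in both replicates. At Day 21 it was 1.05 ± 0.094 (SE 0.15, adjusted p = 0.0245), which is 2.07-fold more abundant, and it was the only single_unique gene (1 of 193) that limma called higher at Day 14, where 0.736% of all genes tested were higher, or at Day 21. It is typed not essential. Its call was lost under centring on all guides (adjusted p = 0.0511) and with the median over guides (adjusted p = 0.0797), where it stood at 1.36 and 1.18.

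The other lists held few single_unique genes. In the proteasome 2 of 5 fell, PSMD14, the deubiquitinase of the regulatory particle, to −1.39 and −1.25 (limma adjusted p = 0.0175), and PSMB1, a subunit of the core particle. PSMB3, also of the core, stood at −0.24 and 0.25 (adjusted p = 0.993). Of 3 chaperone genes PFDN2, a prefoldin subunit, fell to −0.87 and −1.49 (adjusted p = 0.0455). Of its 8 guides, 2 were at −1 or lower in both replicates and 3 were above 0 in both. With the median over guides PFDN2 stood at 0.20 and was not called (adjusted p = 0.519), nor was it under centring on non-targeting guides (adjusted p = 0.0782) or in the robust fit (adjusted p = 0.0519). PDRG1, a prefoldin-like protein, stood at 0.070 and 0.0075 (adjusted p = 0.872). Of 3 genes of nuclear transport XPO5, the exporter of microRNA precursors, fell to −1.60 and −1.38 (adjusted p = 0.0156), while the messenger RNA export factor NXT1 stood at 0.20 and 0.014 (adjusted p = 0.666). Of 7 genes matched by symbol to vesicles and the V-ATPase, ATP6V1B2, a subunit of the proton pump, fell to −0.90 and −1.22 (adjusted p = 0.0316). The ESCRT subunit CHMP6 was the highest of these at −0.074 and 0.16 (adjusted p = 0.877), and VPS72 and SSRP1, which the symbol pattern also took, act on chromatin.

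None of the 10 genes of the mitochondrial ribosome and translation was called in either direction by limma (0 of 10). Their median was −0.13, and they ranged from MRPL18 at −1.01 and −0.29 (adjusted p = 0.156, and in the fit of all days 0.0355 without and 0.0189 with the replicate block) to MRPL17 at 0.61 and 0.34 (adjusted p = 0.131, or 0.0172 in that fit with the block). The 3 cytoplasmic aminoacyl tRNA synthetases were not called either, with FARSB lowest at −0.57 and −0.50 (adjusted p = 0.0868, and in the fit of all days 0.00956 without and 0.00789 with the block) and DARS highest at −0.45 and −0.26 (adjusted p = 0.195, and 0.0374 and 0.0276 in the same fits). The single members of 2 more lists, the translation factor EIF2B2 at −0.25 and 0.23 and the complex III subunit UQCRC1 at 0.14 and 0.13, were not called (adjusted p = 0.984 and 0.558).

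Outside the lists, 8 of 77 genes fell: TOMM22, EXOSC7, RSL1D1, DHX9, SMARCA5, ACTR10, SUPV3L1 and GTPBP4. TOMM22, a receptor of the translocase through which proteins enter mitochondria, was the third lowest of the 193 genes. Its 19 guides gave −0.51 and −0.54 at Day 7, −1.52 and −2.75 at Day 14, and −2.52 and −2.95 at Day 21, with an overlap between Day 14 and Day 21. The Day 21 mean was −2.73 ± 0.30 (SE 0.18, limma adjusted p = 0.0107). NELFB, of the negative elongation factor, had the second highest mean, 0.68 and 0.67 at Day 21, and missed the threshold (adjusted p = 0.0574, and in the fit of all days 0.00747 without and 0.00552 with the block). TIMM29, of the inner-membrane translocase, stood at 0.32 and 0.72 (adjusted p = 0.138, and 0.0360 and 0.00624 in the same fits).

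Gene calls at Day 21 depended on where 0 was placed and on how the guides of a gene were averaged. Non-targeting guides had Day 21 medians of −0.038 and 0.00093 (replicates 1 and 2), near the 0 of the deposited values. Centring on non-targeting guides took the call from 3 of the 38 named genes, and centring on all guides from 15. The median of all guides in the table was itself −0.33 and −0.28 at Day 21. Centring each library on it raised every gene mean by 0.31 and left 8 of the 43 genes lower: EXOSC7, FBL, MIS18A, RPA1, RPS4X, SNRNP200, SPC25 and TOMM22. All 43 means stayed below 0 under that centring, but the list medians of the mitochondrial ribosome (0.18), RNA polymerases and transcription (0.042), chaperones (0.12), vesicles and V-ATPase (0.060), the genes in no list (0.093) and EIF2B2 (0.30) turned positive. With the median in place of the mean over guides, 3 of the 43 genes passed (RPS12, RPS4X and SNRNP200), and 42 of the 43 gene medians were below 0.

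The course over time was similar among the genes that fell. At Day 7, 5 single_unique genes were lower, RPS4X, SNRNP200, RPS28, POLR2I and PFDN2 (2.59% of 193, against 3.92% of all genes tested). These Day 7 calls depended on the setting: limma called 2 genes under centring on non-targeting guides, and 0 under centring on all guides (14 at an unadjusted p under 0.05), in the robust fit (16), with a minimum implied Day 0 number of 50 (14) and in the fit of all days without a block (11). At Day 14, 44 were lower (22.8%, against 22.1%), and 42 of the 43 genes lower at Day 21 were among them, all but RPF2. In the fit of all days the Day 14 number was 75 without and 82 with the replicate block. NOC4L and POLR2C were called lower at Day 14 and not at Day 21. Over the 43 genes the median fold change in replicate 1 went from −0.10 at Day 7 through −0.98 to −1.28 at Day 21. In replicate 2 it went from −0.40 through −1.15 to −1.35. Replicate 2 was the lower one at Day 7 in all 43 genes, and Day 14 lay below Day 7 in both replicates in all 43. The Day 14 value was a median of 0.779 of the Day 21 value in replicate 1 and 0.865 in replicate 2, and Day 21 lay below Day 14 in both replicates in 35 of the 43 genes. PFDN2 was the single gene (1 of 43) above its Day 14 value in both replicates, with −1.15 and −1.71 at Day 14 and −0.87 and −1.49 at Day 21.

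Tested directly with limma, 48 single_unique genes were lower at Day 21 than at Day 7 (24.9%, against 23.5% of all genes tested), and MAD2L1 was the 1 gene higher (0.518%, against 1.23%). Of the 43 genes lower at Day 21, 41 were among the 48. LSM2 fell by 2.96 between these days (SE 0.21, adjusted p = 2.42e-06), RPS4X by 2.25 (SE 0.25, adjusted p = 4.49e-05) and TOMM22 by 2.21 (SE 0.22, adjusted p = 2.28e-05). The pattern closest to that of RPS4X over the 6 libraries was that of LSM2, at a Euclidean distance of 1.54 log2 units, followed by SNRNP200 at 2.50 and RPS28 at 2.68.

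The next comparison took single junctions, using the mean over the guides of a junction. At Day 21, 24.9% of the 1507 single_unique junctions with at least 3 guides were called lower (against 25.3% of all junctions tested), and 11 junctions were higher (0.73%, against 0.937%). At Day 7 it was 5 junctions (0.332%, against 0.625%) and at Day 14 324 (21.5%, against 21.9%). Junctions of the non-essential control genes, which held fewer guides each (1992 on 698 junctions), were called lower at Day 21 in 9.11% of cases (56 of 615). For the Day 21 junction fit limma estimated an infinite prior, so each junction was given the same spread (SD 0.51) whatever its number of guides, and a call there reflects the size of the mean. In the fit of all days, limma called 48 junctions lower at Day 7 when the replicate block was included and 0 when it was not (78 had an unadjusted p under 0.05). At Day 21 the numbers were 612 and 463. A plain threshold gave 260 junctions at −1 or lower in both replicates (17.3%, against 18% of all junctions tested).

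Junctions of a gene that fell differed widely among themselves. Of the 43 genes, 41 had more than 1 junction with at least 3 guides. These 41 genes had 469 such junctions, of which 250 were called lower (53.3%), 379 were below 0 in both replicates (80.8%, against 54.5% of all junctions tested) and 194 were at −1 or lower in both (41.4%). The distance from the lowest to the highest junction of a gene had a median of 3.66 log2 units and ran from 0.045 in LSM2 to 6.18 in DHX9. In 10 genes every junction was below 0 in both replicates, and in 4 of these, RPS4X, LSM2, SPC25 and RPS12, every junction was called lower. In 15 genes at least 1 junction was above 0 in both replicates, 26 junctions in all. The genes were called on the mean of these same junctions, so these values are a description. In the 133 genes with more than 1 junction that were called in neither direction, the median range was 1.07.

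The differences between junctions repeated between replicates. Within the 37 fallen genes with 3 or more junctions, the correlation of the junction means of the replicates had a median of 0.873 and ran from 0.295 in NOP58 to 1.00 in TOMM22, and it was above 0.8 in 27 genes. These points share a gene and, within a replicate, the Day 0 library of that replicate. Both replicates use the same guides, so the correlations are descriptions. To test the differences, each junction was set against the mean of the other junctions of its gene (for 2 junctions, against each other) with limma over the 5790 such differences of the whole table. Of 1466 single_unique differences 343 passed (23.4%, against 23.8% of all tested). They lay in 90 of 175 genes, including 40 of the 41 fallen genes, with LSM2 the exception, and 50 of the 133 genes that were called in neither direction. The differences of a gene share its junctions and are not independent, so 1 deep junction can make others of its gene pass. EXOSC7 had 1 junction called lower and 3 of 3 differences called. The fit of all days gave 113 genes without and 139 with the replicate block in place of 90, and medians over guides gave 51. In this fit too the spread was drawn almost wholly from all differences together (prior SD 0.51), so a standard error hardly reflected the guides or replicates of its own junction, and a call reflects mainly the size of the difference.

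TOMM22 had the largest junction difference. Junction 3, chr22:38682996-38683766, gave −1.05 and −1.15 at Day 7, −3.08 and −5.61 at Day 14, and −4.61 and −5.56 at Day 21 over 8 guides, all 8 of them at −1 or lower in both replicates at Day 21, where 17.1% of all guides tested were. Its first junction, chr22:38682095-38682322, reached −1.32 and −1.44 at Day 21, with 3 of 8 guides at that level, and its second, chr22:38682441-38682878, stood at −0.12 and 0.0032 over 3 guides. The third junction was thus the lowest in both replicates by more than the replicates differed, and it lay 4.37 below the mean of the other junctions (SE 0.36, limma adjusted p = 1.71e-17). Its lowest guide, number 7 of that junction, went through −1.46 and −2.67 at Day 7 and −3.84 and −7.26 at Day 14 to −6.26 and −6.99 at Day 21. Its implied number was 80 at Day 0 and 1 at Day 21 in replicate 1, and 116 and 1 in replicate 2. The highest guide of the gene, number 1 of the first junction, stood at 1.17 and 1.25 at Day 21.

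FBL showed both ends on neighbouring junctions. Junction 3, chr19:39836668-39837710, stood at −0.57 and −1.79 at Day 7, −5.34 and −5.84 at Day 14, and −5.58 and −5.54 at Day 21, with 5 of 5 guides at −1 or lower in both replicates. The next junction, chr19:39834813-39836555, stood at 0.12 and 0.30, 0.031 and 0.55, and 0.35 and 0.41 on the same days, with 0 of 5 guides at that level. The fourth junction lay 4.05 above the mean of the others (SE 0.36, limma adjusted p = 3.56e-16). The first junction, chr19:39839205-39840232, had a mean of −1.08 and −1.13 that came from 2 of its 8 guides, numbers 7 and 8, which reached −5.26 and −3.39, and −5.98 and −6.65. The remaining 6 guides of the first junction lay between −0.61 and 1.06 at Day 21.

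DHX9, an RNA helicase of the nucleus, had 21 junctions, of which 10 were called lower, 13 were below 0 in both replicates and 2 were above 0 in both. Junction 14, chr1:182876903-182878020, stood at −1.83 and −2.13 at Day 7, −4.38 and −4.06 at Day 14, and −5.86 and −5.07 at Day 21, with 7 of 7 guides at −1 or lower in both replicates. Junction 15, chr1:182878173-182879249, the next one, stood at 0.31 and 1.1 at Day 21 over 7 guides. Low and high junctions of DHX9 were found in several places along the transcript. Over the replicates, junctions 3 and 4 had Day 21 means of −3.19 and −2.92, junctions 5 and 6 of −0.031 and −0.080, junction 17 of 0.56 and junction 18 of −3.67. The lowest guide of DHX9, number 2 of junction 11, reached −6.04 and −7.95, although that junction as a whole stood at −2.40. The lowest guides of the 21 junctions ran from that value to −0.61 and 0.23 on junction 17.

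ANAPC2 and ATP6V1B2 each had a single junction far below the rest. Junction 8 of ANAPC2, chr9:137180384-137180451, stood at −4.54 and −5.56 at Day 21, and all 8 of its guides were at −1 or lower in both replicates. The other 9 junctions of ANAPC2 ran from −2.17 to −0.14, and junction 8 lay 4.20 below their mean (SE 0.36, limma adjusted p = 7.25e-17). Junction 7 of ATP6V1B2 stood at −0.41 and −0.80 at Day 7, −3.74 and −5.61 at Day 14, and −4.57 and −5.26 at Day 21. Its 12 other junctions ran from −1.85 to −0.028, and the difference was −4.22 (SE 0.36, adjusted p = 4.5e-17). The lowest guide of junction 7 of ATP6V1B2 reached −6.95 and −7.05, and the lowest guides of its other junctions had Day 21 means from −4.99 to −0.91.

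Other genes were more even. LSM2 was lowered through both junctions to nearly the same level: the first, chr6:31806142-31806754, stood at −3.17 and −4.30 at Day 21, and the second, chr6:31798049-31798476, at −3.26 and −4.30. Their difference was −0.045 (SE 0.36, limma adjusted p = 0.952) and 0.48 with a minimum implied Day 0 number of 50 (adjusted p = 0.392). In SNRNP200, 40 of 41 junctions were below 0 in both replicates, 36 were called lower and 32 were at −1 or lower in both, but they still ran from −5.50 on junction 16, chr2:96291502-96291750, to −0.058 on junction 25, chr2:96287160-96287438. NOP58, with 7 junctions from −1.70 to 0.13, and SMU1, with 8 junctions from −2.23 to −0.29, had the next smallest largest differences among the genes that fell, 1.11 (SE 0.36, adjusted p = 0.0155) and 1.13 (SE 0.36, adjusted p = 0.0137). With medians over guides neither difference passed, at 1.01 and 0.45 (adjusted p = 0.182 and 0.55).

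RPS4X fell through both of its junctions to different depths. The first, chrX:72273389-72273800, stood at −2.02 and −3.62 at Day 7, −4.60 and −5.03 at Day 14, and −5.47 and −5.36 at Day 21, with 8 of 8 guides at −1 or lower in both replicates. The second, chrX:72272772-72273231, stood at −0.28 and −0.60, −1.76 and −2.11, and −2.24 and −2.44, with 5 of 8 guides. The junctions did not overlap on any day, and the second lay 3.08 above the first at Day 21 (SE 0.36, limma adjusted p = 2.53e-11). The lowest guide of the gene, number 1 of the second junction, stood at −6.69 and −7.18, and the highest, number 7 of the same junction, at 0.48 and −0.94. The implied number of the lowest guide went from 108 and 132 at Day 0 to 1 in both replicates at Day 21. Its value is thus only a bound on its loss, and ranks among guides at that number also reflect their Day 0 numbers.

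POLR2I resembled FBL. Its first and second junctions, chr19:36114713-36114797 and chr19:36114251-36114338, stood at −2.63 and −3.26, and at −3.23 and −3.83. The third, chr19:36113817-36114014, stood at 0.29 and 0.55 and lay 3.66 above the mean of the others (SE 0.36, limma adjusted p = 4.17e-14). Of the 8 guides on the third junction, none was at −1 or lower in both replicates (0 of 8), against 6 and 5 on the others.

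The genes called higher or nearly so also differed in this respect. Both junctions of MAD2L1 were called higher, at 1.00 and 0.81 and at 1.25 and 1.17, and their difference of 0.31 was not called (limma adjusted p = 0.612). Of its 15 guides, 11 were above 0 in both replicates at Day 21. NELFB had 4 of 7 junctions called higher, the first 4 of the gene, with Day 21 means of 1.11, 1.06, 1.34 and 1.13. Its last 3 junctions stood at 0.059, 0.32 and −0.087, and the last one lay 0.92 below the mean of the others (adjusted p = 0.0483). Of the 11 junctions called higher, the remaining 5 lay in SSRP1 (2), DHX15 (2) and CDAN1 (1).

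Some genes that were not called held a strongly depleted junction. Of the 1018 junctions of the 133 uncalled genes with more than 1 junction, 12.1% were called lower, in 59 genes, and 65 were at −1 or lower in both replicates (6.39%). Both shares were below those of all junctions tested (25.3% and 18%). The 9.11% called lower in the non-essential control genes is not like for like. Those genes held 1992 guides on 698 junctions, against 11444 on 1562 in single_unique. Among single_unique junctions of genes typed not essential, which overlap with this set, 3.17% were called lower (15 of 473). At −1 or lower in both replicates were 1.27% of them. The 133 genes were left uncalled on the mean of these same junctions, and all junctions tested include those of called genes. The shares are therefore descriptions. The deepest were in VARS, the valyl tRNA synthetase, at −3.57 among 23 junctions, in the tri-snRNP protein PRPF6 at −3.35 among 18, in URB1 at −3.24 among 32 and in CEBPZ at −3.21 among 11. These 4 were chosen after their values were seen. The junction of VARS lay 3.23 below the mean of the others (limma adjusted p = 3.87e-12), while its gene-level value was an average over 5 called and 18 uncalled junctions.

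Across single_unique genes, odd and even junctions of a gene correlated less closely than its replicates. Splitting each gene's junctions into odd and even ones along the transcript, the 2 means correlated over 174 genes with r = 0.581 and rho = 0.566 at Day 21. The replicates of a gene mean correlated with r = 0.905 over 193 genes, and those of a junction mean with r = 0.817 over 1507 junctions. The odd and even means share no guides and each uses only part of a gene's guides, while the replicates share all guides. The correlations are therefore not like for like. These correlations are across genes and junctions, which share libraries and are not independent replicates. The covariance of the replicates over guides, which leaves out noise private to a replicate, split into 22.5% between genes, 32.7% between junctions of a gene and 44.7% between guides of a junction. In the 43 genes that fell, the parts were 9.43%, 45.0% and 45.6%, and in the other genes 8.42%, 26.6% and 65.0%. Both groups were formed by the gene mean, which lowers the part between genes in each. Among guides of genes typed essential, the part between genes was 15.9% in single_unique and 23.7% in common, and the part between junctions 36.0% and 29.9%, a difference that was not tested. The parts add up to the whole covariance and also depend on the number of junctions per gene and guides per junction. Genes typed essential had 1075 junctions in 115 genes in single_unique, and 2748 in 366 in common.

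Mean deviations by position along the transcript were small beside the spread within a gene. In the 28 fallen genes with at least 6 junctions, the deviation of a junction from the mean of its gene was 0.087 and 0.12 (replicates 1 and 2) in the first of 5 equal parts of the gene, counted in junctions from the 5′ end, −0.037 and −0.079, −0.22 and −0.21, and −0.035 and −0.034 in the next ones, and 0.20 and 0.19 in the last. The middle was the lowest and both ends the highest in each replicate. Over junctions, the standard error of the mean deviation was 0.13 in the first part, 0.13 in the middle and 0.11 in the last. In the 71 genes not called lower, the second part was the lowest in each replicate (−0.031 and −0.15), and the middle stood at −0.023 and 0.018. These differences were not tested. The first junction deviated by 0.20 and 0.39 and the last by 0.33 and 0.17. Deviations of neighbouring junctions had a correlation of −0.11 over 386 pairs. Each deviation is taken from the mean of the same gene, which by itself pulls this correlation below 0, so no pattern is read from it. Of 5 equal classes of junctions by genomic span, the longest, with a median of 3748 bases, deviated by 0.31 and 0.36 (standard error over junctions 0.10). The middle class deviated by −0.28 and −0.21 (standard error 0.14), so the deviation did not rise steadily with span. Over all 429 junctions the correlation of the deviation with the log of the span was 0.087. Differences between span classes were not tested. In the genes that did not fall the longest class deviated by −0.010 and 0.027.

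Guides of a junction were numbered 1 to 8 in the table, and what the number stands for is not given. On fully covered junctions of the genes that fell, each number had 359 guides. The mean at Day 21 was lowest at number 6 in replicate 1 (−1.54) and at number 5 in replicate 2 (−1.72), and highest at number 1 in replicate 1 (−1.26) and at number 7 in replicate 2 (−1.31). The guides at −1 or lower in both replicates made up 38.7% at numbers 5 and 6, 30.4% at number 7 and 32.6% at number 1. In uncalled genes and the 1 gene called higher, they made up between 8.78% and 10.8% at every number.

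At the level of single guides, 1247 single_unique guides were called lower at Day 21 with limma (10.9%, against 11.1% of all guides tested) and 26 higher (0.227%, against 0.218%). It was 197 at Day 7 (1.72%, against 2.1%) and 913 at Day 14 (7.98%, against 7.96%). In the fit of all days, limma called 13 guides lower at Day 7 when the replicate block was included and 0 when it was not (226 had an unadjusted p under 0.05). At Day 21 the numbers were 2196 and 1305. Non-targeting guides were called lower at Day 21 in 1.04% of cases and control-gene guides in 2.71%. Of the 1247 guides, 859 lay in the 43 genes that fell, which is 24.0% of their 3584 guides, and 388 lay in the other genes, 4.94% of 7860. The genes were called on the mean of these same guides, so these shares and the counts that follow are descriptions. Even in the most depleted genes not every guide fell: 14 of 16 guides of RPS4X, 14 of 16 of LSM2, 247 of 319 of SNRNP200, 18 of 27 of FBL and 13 of 19 of TOMM22 were below 0 in both replicates, against 38.7% of all guides tested. The lowest guide of LSM2, number 1 of the second junction, stood at −5.76 and −7.22, and the highest, number 8 of the first, at −0.91 and 0.99. In SNRNP200 they stood at −6.72 and −8.03 on junction 39 and at 1.47 and 1.35 on junction 17. The 26 guides called higher lay in 20 genes, 4 of them in NELFB.

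The share of genes that fell was larger among genes with more junctions. Of 18 genes with 1 junction 11.1% were lower at Day 21, of 73 genes with 2 to 5 junctions 16.4%, of 59 with 6 to 11 junctions 22%, and of 43 with 12 to 46 junctions 37.2%. The median absolute gap between the replicates of a gene mean moved with this, from 0.52 in the genes with 1 junction to 0.27, 0.15 and 0.11. The gene medians moved as well, from −0.047 to −0.21, −0.28 and −0.53, and the part of the replicate gap in the calls was not tested. The GeCKO gene score of the deposited table, named after a Cas9 knockout library, had r = 0.080 and rho = 0.072 with the Day 21 mean over 193 genes, a description across genes.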

How the data were processed

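The deposited table holds log2 fold changes per guide, day and replicate, each made by the authors against the Day 0 library of the same replicate, per the file headers. It also holds a GeCKO gene score made by the authors, per the file headers. Cutadapt 3.5, Bowtie 1.1.2 and hg38 are named in the submitters' processing notes. Read counter, pseudocount and scaling are not given in the sources used here. In all 6 libraries 100% of the values equalled a library constant plus the log2 of one whole number over another of 2000 or less, and at most 0.278% did with the constant moved by a small step. The implied numbers come from these ratios and are lower bounds, since a common factor drops out.

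Groups and replicate numbers came from the labels. The whole table was fitted with limma 3.58.1 in R 4.3.3, each day alone, the mean of 2 replicate values against 0, with a Benjamini-Hochberg adjusted p under 0.05 over all features. Genes and junctions needed at least 3 guides, which left out 55 single_unique junctions and 1 gene. Values are means over guides. Junctions were numbered 5′ to 3′ within a gene, and positions are those of the deposited table. Of the 194 gene symbols, 193 matched RefSeq GRCh38.p14, 3 of them by synonym, and 1560 of 1560 of their junctions lay inside the gene. The scripts were tested on simulated data.

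Same-numbered libraries deviated together (correlations of deviations over guides of 0.493 for Day 7 and Day 14, 0.419 for Day 7 and Day 21, 0.651 for Day 14 and Day 21), and they share a Day 0 library by construction, so the fold changes are already paired. Named genes were the 12 lowest and 4 highest genes, the 5 with the largest and 3 with the smallest junction differences, and the lowest and highest member of each functional list, which was made by symbol pattern. Members and lists were chosen with earlier results of these data known. The alternatives were other centrings, a robust fit, all days in 1 fit with and without a replicate block, a minimum implied Day 0 number of 50, medians over guides, and leaving out a replicate.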

Additional observations from a re-analysis of the deposited data

Results flagged for a closer look

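The change between Day 7 and Day 21 was tested as a difference between time points with limma over all 1223 genes. It was negative for 48 single_unique genes and positive for 1, MAD2L1. Of the 48, 41 were also lower than Day 0 at Day 21, and the remaining 7 were CEBPZ, INTS8, NOC4L, OIP5, PHAX, TSR2 and TUBB4B. TUBB4B, a beta tubulin, is the lowest gene of those typed not essential, with a Day 21 mean of −0.73, and it was not called against Day 0 (adjusted p = 0.0968).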

How the results depend on the processing

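With the replicate number as a block in 1 fit of all days, counts became 13 guides and 48 junctions at Day 7, 82 genes at Day 14, and 2196 guides, 612 junctions, 99 genes and 139 genes with differing junctions at Day 21. Of 38 named genes, 5 passed the threshold in the fit of all days without a block and not day by day (NELFB, TIMM29, MRPL18, FARSB and DARS). The block added MRPL17 and RRP36 and changed no other call among them; the pairing is already in the Day 0-relative values. The same fit without a block gave at Day 7 0 guides (226 at an unadjusted p under 0.05), 0 junctions (78) and 0 genes (11), at Day 14 75 genes, and at Day 21 89 genes and 113 with differing junctions. Centring on all guides gave 30 junctions and 0 genes (14 unadjusted) at Day 7, 27 genes at Day 14, 8 at Day 21 and 20 genes lower at Day 21 than at Day 7. Centring on non-targeting guides gave 10 junctions and 2 genes at Day 7. The robust fit gave 128 guides, 1 junction and 0 genes (16 unadjusted) at Day 7. A minimum implied number of 50 gave 14 junctions and 0 genes (14 unadjusted) at Day 7, and moved the Day 21 medians to −0.302 against non-targeting and 0.0871 against common guides. Means over guides moved them to −0.568 and 0.121, and to 0.0667 within genes typed essential. Medians over guides gave 22 junctions at Day 7, 184 junctions and 9 genes at Day 14, and 3 genes, 6 genes below Day 7 and 51 genes with differing junctions at Day 21. The causes were not tested.

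Leaving out a replicate gave 3491 to 3744 guides, 341 to 385 junctions and 37 to 39 genes at −1 or lower, 101 to 102 genes with junctions 1 or more apart, and differences of −0.29 to −0.27 from non-targeting guides, 0.071 to 0.079 from common guides and 0.029 to 0.055 within genes typed essential. Genes lower by 1 or more at Day 21 than at Day 7 numbered 22 with both replicates, 21 without replicate 1 and 34 without replicate 2. Of the 38 named genes, 15 lost their call under centring on all guides and 18 with medians over guides, 3 with non-targeting centring (ATP6V1B2, NOP58, PFDN2) and 1 with the robust fit (PFDN2). Signs turned for PFDN2 with medians (0.20), for EIF2B2 under non-targeting centring (0.011), all-guide centring (0.30), and medians (0.038), and for the junction difference of LSM2 at a minimum of 50 (0.48). Leaving out a replicate also turned signs of genes not called: −0.24 to 0.25 for PSMB3, −0.25 to 0.23 for EIF2B2, −0.092 to 0.36 for RAD9A and −0.074 to 0.16 for CHMP6. Day 7 calls thus depended on the setting, and 2 replicates limit every call. Guides at an implied number of 1 give only a bound on their loss, and low depth widens single-guide values.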
